A study of Mus musculus with 48 samples.

Results

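Glycine 5' tRNA fragments are short RNAs that begin at the 5' end of a tRNA carrying glycine. They were chosen by their annotation and by 1 measured value. The tRNA-derived fragment (tRF) had to be annotated as 5'-half or 5'-tRF with glycine tRNAs as its only annotated locations, and it was selected on a summed count of 10 or more over the 48 libraries, whatever their group. This left 73 of 13007 tRFs, out of 149 glycine 5' fragments of any count. The 73 members held 542564 of 12563678 tRF counts, or 4.32%, and the 76 fragments under the minimum held 213 counts. Just inside the minimum lay 2 members with a summed count of 10, tRF-36-Q1Q89P9L8422YRB and tRF-48-P4R8YP9LON4VN1EH6KDJ, and just outside it lay 2 fragments with a summed count of 9, tRF-39-Q1Q89P9L8422YRF5 and tRF-26-PLR8YP9LOND.

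Small RNAs were sequenced from 2 ganglia of Balb/c mice aged 2.5 months. The trigeminal ganglion (TG) holds the sensory neurons that serve the face, and the superior cervical ganglion (SCG) holds sympathetic neurons that serve the head. Mice had received an intraperitoneal injection of lipopolysaccharide (LPS, an outer membrane component of Gram-negative bacteria) from E. coli O55:B5 at a dose of 2.5 mg/kg or of saline, each in a volume of 0.2 mL, and ganglia were taken after 4 h, 24 h or 7 d. Both ganglia of a kind were taken from each mouse, and each of the 12 groups (ganglion, treatment, time) has 4 libraries, 2 from female and 2 from male mice. The 48 libraries come from a larger set of 96 samples of 48 mice. The labels do not tie libraries to mice, so TG and SCG libraries may share animals, and the p-values measure the spread between libraries.

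A tRNA brings its amino acid to the ribosome and reads the codon with its anticodon, which sits in a loop near the middle of the molecule. In stressed mammalian cells the ribonuclease angiogenin cuts mature tRNAs within this loop and leaves a 5'-half and a 3'-half. The 5'-half fragments of the glycine tRNA with anticodon GCC are among the commonest tRNA fragments in mammalian tissue, serum and sperm. In the names used here, the number after "tRF-" is the length in bases and the letters encode the sequence.

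The members fall into forms that differ in only a few bases, so the longest member of each main form is printed 5' to 3' in the deposited DNA letters, with the anticodon in capitals.
GlyGCC form 1, tRF-49-P4R8YP9LON4VN1EH6K1K: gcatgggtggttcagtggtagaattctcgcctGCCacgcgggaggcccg
GlyGCC form 2, tRF-50-PNR8YP9LON4VN1EH6KK8: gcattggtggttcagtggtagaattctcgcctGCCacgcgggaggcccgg
GlyCCC form 1, tRF-35-PNR8YO9LON4V4R: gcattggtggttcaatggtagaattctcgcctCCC
GlyCCC form 2, tRF-50-Q1Q89P9L8422YRI7XUK8: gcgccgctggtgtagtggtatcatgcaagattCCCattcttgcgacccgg
GlyTCC, tRF-50-QNR8VP94FQFY392J1Y0S: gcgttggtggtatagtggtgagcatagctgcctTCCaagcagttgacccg
Counted from 1 at the 5' end, GlyGCC form 1 became form 2 by the substitution G5T. GlyCCC form 1 differed from GlyGCC form 1 by G5T, G15A and G33C, while GlyCCC form 2 and GlyTCC are separate sequences. The anticodon occupies bases 33 to 35 in the GlyGCC and GlyCCC forms and bases 34 to 36 in GlyTCC. Only 1 base separates GlyGCC forms 1 and 2, and the members of a form are nested in one another, so a sequencing error or a trimmed base can move a read between members.

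Within GlyGCC form 1 the results turn on the 3' end, so the members of 28 to 35 bases are printed with their last base in capitals.
tRF-28-P4R8YP9LOND5: gcatgggtggttcagtggtagaattctC
tRF-29-P4R8YP9LONHK: gcatgggtggttcagtggtagaattctcG
tRF-30-P4R8YP9LON4V: gcatgggtggttcagtggtagaattctcgC
tRF-31-P4R8YP9LON4VD: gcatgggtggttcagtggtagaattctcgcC
tRF-32-P4R8YP9LON4V3: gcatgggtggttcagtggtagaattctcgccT
tRF-33-P4R8YP9LON4VDP: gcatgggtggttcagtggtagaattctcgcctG
tRF-34-P4R8YP9LON4VHM: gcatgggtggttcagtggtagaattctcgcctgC
tRF-35-P4R8YP9LON4VN1: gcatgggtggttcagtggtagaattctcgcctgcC
The 32-base fragment ends on the base just before the anticodon and the 31-base fragment ends 1 base earlier. The deposited annotation calls the lengths 31 to 34 a 5'-half and the lengths 28 to 30 and 35 a 5'-tRF.

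Counts were concentrated in GlyGCC form 1, whose 19 members of 28 to 49 bases held 513219 counts, or 94.6% of the member counts. A single fragment, the 31-base tRF-31-P4R8YP9LON4VD, held 342123 counts, 63.1% of the member counts, and ranked the 7th of all tRFs. The top 3 members, the form 1 fragments of 31, 30 and 32 bases, held 89.1%, and the top 10 held 97.4%. At the other end, 39 members had summed counts under 100.

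The other forms were far smaller. GlyGCC form 2 had 14 members of 37 to 50 bases with 13908 counts (2.56%), and GlyGCC form 3 had 3 members of 25 to 28 bases with 209 counts. Every tRF that begins with the form 2 sequence was 37 to 50 bases long (16 fragments), so its length profile below 37 bases is not analysed here. The rule by which fragments were listed is not given in the sources used here, so the shares of forms 1 and 2 are shares of the counts as listed and were not compared. GlyCCC form 1 had 10 members of 25 to 35 bases with 7662 counts (1.41%), GlyCCC form 2 had 17 members of 17 to 50 bases with 6808 counts (1.25%), and GlyTCC had 4 members of 20 to 50 bases with 475 counts. A further 6 members of 31 to 35 bases carried 1 extra base before position 1 and held 283 counts. The commonest 5'-half and 5'-tRF among them, tRF-32-LQ947673FEWSJ with 147 counts and tRF-31-LQ947673FEWSD with 15, were too rare to test. By annotation, 17 members were 5'-half fragments and 56 were 5'-tRFs. The GlyGCC 5'-half fragments held 76.4% of the member counts in 6 members, and the GlyGCC 5'-tRFs held 20.8% in 32 members.

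The chosen set leaves out 16 fragments with 23117 counts that the annotation places in both glycine and valine tRNAs. The annotated locations are those of the human genome. In RefSeq's mouse annotation (GRCm38.p6) 14 glycine tRNA genes carry the anticodon GCC, 6 carry CCC, 7 carry TCC and 1 carries ACC. Which of these genes gave a fragment was not tested.

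Total tRF counts were 61218 to 1511191 per library (median 204269), with medians of 166532 in TG and 248290 in SCG libraries, and a library held 2115 to 51553 member counts. Levels are given as CPM, the share of a library's tRF counts after scaling by the trimmed mean of M-values (TMM), in parts per 1e6. Among the 72 pairs of libraries of one group, none differed by as little as sampling noise (lowest chi-square per degree of freedom 3.06). Every library was counted as its own replicate. The spread cannot show that libraries come from different mice, since separate preparations of one RNA can also differ by more than sampling noise. Of the 73 members, 31 passed the filter on low counts in at least 1 comparison. The other 42 were not tested in any and held 1940 counts together, at most 240 each.

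The members took overlapping parts of the tRF counts in the 2 ganglia, at 2.67 to 7.98% of tRF counts in TG libraries (median 3.44%) and 2.10 to 12.7% in SCG libraries (median 4.40%). After TMM scaling the summed GlyGCC level was 15363 to 65631 CPM in TG libraries, with a median of 27098 CPM, and 25226 to 139700.0 CPM in SCG libraries, with a median of 50419 CPM. The ranges overlapped. GlyCCC sums were 415 to 1741 CPM in TG libraries (median 865 CPM) and 622 to 3906 CPM in SCG libraries (median 1382 CPM). GlyTCC sums were 14.6 to 86.0 CPM in TG libraries (median 49.3 CPM) and 12.3 to 165 CPM in SCG libraries (median 32.95 CPM), from only 3 to 29 counts a library. In every group, therefore, GlyGCC stood highest, GlyCCC next and GlyTCC last, with no overlap between the 3 anticodons.

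**Figure D1:**
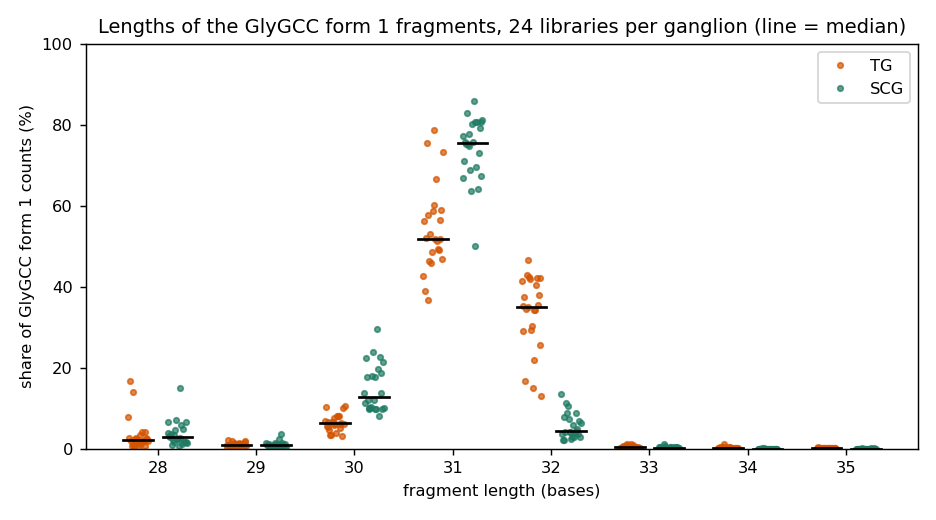
Share of the GlyGCC form 1 counts of a library (y axis, percent) at each fragment length from 28 to 35 bases (x axis), with 24 TG libraries beside 24 SCG libraries as points and the median as a line. The 32-base share was 13.1 to 46.7% in TG and 2.13 to 13.6% in SCG libraries, while the 30-base and 31-base shares had lower medians in TG.

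The ganglia differed in where the GlyGCC form 1 fragment ended. The 32-base fragment, which reaches the anticodon, made up 13.1 to 46.7% of the form 1 counts in TG libraries (median 35.1%) and 2.13 to 13.6% in SCG libraries (median 4.31%). Within the LPS libraries all 12 TG libraries lay above all 12 SCG libraries, and the same held within the saline libraries. Over both treatments, 23 of 24 TG libraries lay above the highest SCG library. The exceptions to the gap were replicate 4 of TG after LPS at 7 d, at 13.1%, and replicate 1 of SCG after saline at 4 h, at 13.6%.

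The 30-base and 31-base fragments had lower shares in TG. The 28-base share had a median of 2.13% in TG and 2.83% in SCG libraries. At 29 bases the median was higher in TG, at 1.03% against 0.915%, and the ganglia overlapped at both lengths. The 31-base share was 36.9 to 78.7% in TG libraries (median 51.9%) and 50.0 to 86.0% in SCG libraries (median 75.6%). The 30-base share was 3.19 to 10.6% in TG libraries (median 6.28%) and 8.0 to 29.5% in SCG libraries (median 12.9%). Of the 24 TG libraries, 9 lay below all SCG libraries at 31 bases and 18 did at 30 bases. These shares are taken within a form and a library, so they do not depend on how libraries are scaled.

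Each member was then compared between ganglia over all tRFs with edgeR's quasi-likelihood test, with terms for time and sex and Benjamini-Hochberg adjustment, separately in the LPS and in the saline libraries. In the LPS libraries 28 members were tested and 14 passed an adjusted p of 0.05, 6 higher and 8 lower in TG, which is 50.0% beside 50.3% of the 599 tRFs tested. In the saline libraries 27 were tested and 12 passed, 4 higher and 8 lower in TG, which is 44.4% beside 42.7% of the 571 tRFs tested. DESeq2 called 15 of 28 members in the LPS and 12 of 27 in the saline libraries, beside 307 of 599 and 256 of 571 tRFs. At an unadjusted p of 0.05 edgeR had 15 members in the LPS libraries, beside 54.9% of all tRFs tested, and 13 in the saline libraries, beside 49.4%. The members' share of calls was thus near that of all tRFs. The median log2 fold change was -0.20 over the tested members and -0.03 over all tested tRFs in the LPS libraries. In the saline libraries it was -0.33 over the tested members and -0.04 over all tested tRFs.

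The split between higher and lower depended on the scaling. With the tRF totals themselves as library sizes and no scaling factors, 6 members were called higher and 5 lower in the LPS libraries, and 4 higher and 4 lower in the saline libraries. Of all tRFs tested, 204 were then called higher and 64 lower with LPS (44.7% called) and 237 higher and 49 lower with saline (50.1% called). The median log2 fold change of all tested tRFs was then 0.53 in the LPS and 0.67 in the saline libraries. With the libraries' miRNA totals as library sizes the counts were 5 higher and 10 lower in the LPS libraries and 3 higher and 10 lower in the saline libraries. All tRFs gave 118 higher and 172 lower with LPS (48.4% called) and 94 higher and 149 lower with saline (42.6% called), and their median log2 fold change was -0.38 in the LPS and -0.21 in the saline libraries.

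Of the 26 members tested in both sets of libraries, 11 were called in both, all in the same direction. This is 78.6% of the LPS calls and 91.7% of the saline calls. How many of all tRFs were called in both sets was not counted, so this share is not particular to the members. The filter on low counts bears on the direction of many calls, because it favours a higher level in the ganglion where a member reaches the minimum alone. The filter asks for the equivalent of 10 counts in a library of median size in at least 4 libraries. In the LPS libraries 5 of the 6 members called higher reached this in TG alone and 2 of the 8 called lower reached it in SCG alone, and in the saline libraries 3 of 4 and 2 of 8 did. These members are described below with their counts, and their direction is no finding.

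Of the members that reached the minimum in both ganglia, 17 were tested in the LPS libraries, with 1 called higher and 6 lower in TG, and 16 in the saline libraries, with 1 higher and 6 lower. Of all tRFs tested, 26.7% were higher and 23.5% lower in the LPS libraries, and 20.8% higher and 21.9% lower in the saline libraries, whichever ganglion brought them through the filter. Among these members of up to 31 bases, 4 of 5 were lower in the LPS libraries and 5 of 5 in the saline libraries. Among those of 32 to 36 bases 1 of 6 was higher and 1 lower in each set, and among those of 37 bases or more 1 of 6 was lower in the LPS libraries and 0 of 5 passed in the saline libraries. The saline counts at the short end depended on the scaling, since with tRF totals as library sizes 3 of the 7 tested members of up to 31 bases, those of 27, 28 and 29 bases, lost the call.

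**Figure D2:**
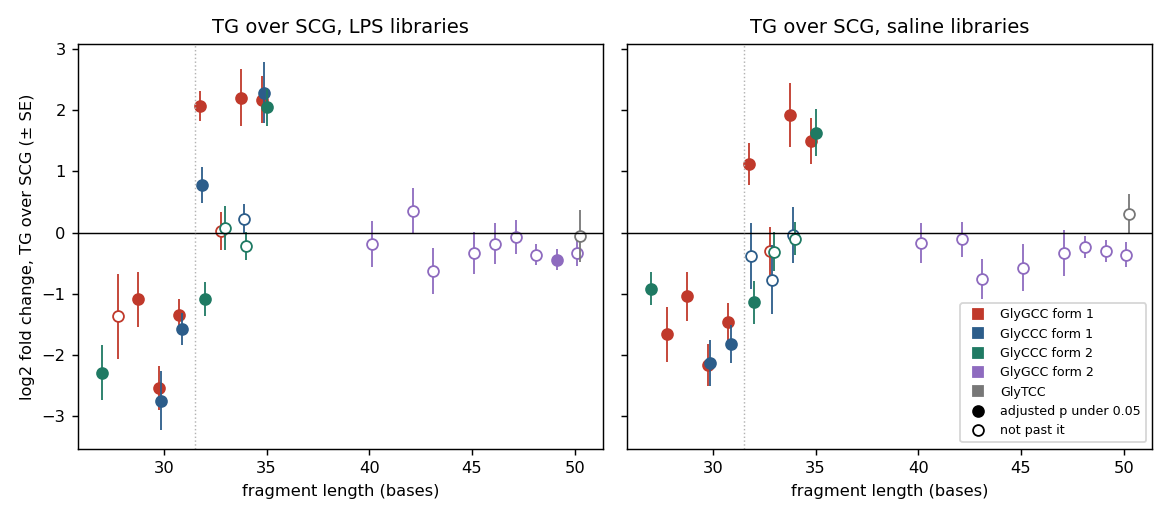
Log2 fold change of TG over SCG (y axis, with its standard error as bars) against fragment length in bases (x axis) for each tested member, in LPS libraries (left) and saline libraries (right), 12 TG against 12 SCG libraries each, coloured by form; filled points passed an adjusted p of 0.05 by edgeR's quasi-likelihood test. Most filled points above 0 are members that passed the filter on low counts through TG alone. The points of 27 to 31 bases lie below 0, several of 32 to 35 bases lie above it, and those of 40 bases or more lie close to it.

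The 31-base fragment tRF-31-P4R8YP9LON4VD, the commonest member, was lower in TG. In LPS libraries it had 8161 to 31047 CPM in TG (median 15781 CPM) and 24293 to 86026 CPM in SCG (median 39928 CPM). In saline libraries it had 6747 to 40130.5 CPM in TG (median 12399 CPM) and 18949 to 118738 CPM in SCG (median 33437 CPM). The ranges overlapped in both. The log2 fold change of TG over SCG was -1.34 ± 0.25 (SE, n = 12 each; edgeR adjusted p = 6.37e-05) in the LPS libraries and -1.47 ± 0.31 (edgeR adjusted p = 0.000366) in the saline libraries.

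The 30-base fragment tRF-30-P4R8YP9LON4V was lower in TG by a larger amount. It had 1122 to 3822 CPM in TG (median 1899 CPM) and 3140.0 to 27047 CPM in SCG (median 9941 CPM) in the LPS libraries. In the saline libraries it had 652 to 2989 CPM in TG (median 1227 CPM) and 2367 to 16946 CPM in SCG (median 4986 CPM). The groups overlapped only at their edges. The log2 fold change was -2.54 ± 0.36 (edgeR adjusted p = 1.53e-06) with LPS and -2.17 ± 0.35 (edgeR adjusted p = 1.35e-05) with saline.

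The 32-base fragment tRF-32-P4R8YP9LON4V3, only 1 base longer than the commonest member, was higher in TG. It had 3367 to 27646 CPM in TG (median 10742 CPM) and 1157 to 4241 CPM in SCG (median 2700.1 CPM) in the LPS libraries. In the saline libraries it had 4491 to 12499 CPM in TG (median 7133 CPM) and 1042 to 12997 CPM in SCG (median 2961 CPM). The highest SCG value was that of replicate 1 of SCG after saline at 4 h, and it lay above all 12 TG saline libraries. The log2 fold change was 2.07 ± 0.25 (edgeR adjusted p = 1.37e-07) with LPS and 1.12 ± 0.34 (edgeR adjusted p = 0.00946) with saline. The saline call was lost with miRNA totals as library sizes (log2 fold change 0.90, edgeR adjusted p = 0.0764).

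Among the rarer form 1 fragments, those of 34 and 35 bases, which end within the anticodon, were called higher in TG as well, but both passed the filter through TG alone, so the filter favoured this direction. The 35-base tRF-35-P4R8YP9LON4VN1 had 10.9 to 119 CPM in TG (median 72.3 CPM) and 0 to 45.0 CPM in SCG (median 9.28 CPM) in the LPS libraries, from 2 to 37 counts a library in TG and 0 to 14 in SCG. Its log2 fold change was 2.18 ± 0.39 (edgeR adjusted p = 3.91e-05) with LPS and 1.5 ± 0.38 (edgeR adjusted p = 0.00213) with saline. For the 34-base tRF-34-P4R8YP9LON4VHM the log2 fold change was 2.20 ± 0.47 (edgeR adjusted p = 0.000308) with LPS and 1.92 ± 0.52 (edgeR adjusted p = 0.00357) with saline, from 4 to 95 counts a library in TG and 0 to 15 in SCG in the LPS libraries. The 33-base tRF-33-P4R8YP9LON4VDP, between the 32-base and 34-base fragments, did not pass: its log2 fold change was 0.03 ± 0.31 with LPS and -0.30 ± 0.39 with saline.

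The shortest form 1 fragments tested had 28 and 29 bases. The 28-base tRF-28-P4R8YP9LOND5 was lower in TG in the saline libraries (-1.67 ± 0.46 on the log2 scale, edgeR adjusted p = 0.00415). In the LPS libraries it had 238 to 8965 CPM in TG (median 619 CPM) and 634 to 11586 CPM in SCG (median 1642 CPM), and its log2 fold change of -1.37 ± 0.70 did not pass (edgeR adjusted p = 0.114). The value of 8965 CPM was that of replicate 1 of TG after LPS at 24 h. Without this library the log2 fold change was -1.75 (edgeR adjusted p = 0.00490). DESeq2 called the fragment lower in TG with LPS (-1.25, DESeq2 adjusted p = 0.0432). Over the 34 fits with LPS its log2 fold change ran from -2.27 to 0.64, so its direction did not hold in all of them. The 29-base tRF-29-P4R8YP9LONHK was called lower in TG, with log2 fold changes of -1.09 ± 0.45 with LPS (edgeR adjusted p = 0.0469) and -1.05 ± 0.40 with saline (edgeR adjusted p = 0.0364). Within single times it did not pass with LPS at 4 h, 24 h or 7 d (-1.26, -0.51 and -0.64). With saline it did not pass at 24 h (-0.75) or at 7 d, where the value was -0.005 (edgeR adjusted p = 0.995). Its call was lost when 1 library was left out in 16 of 24 fits with LPS and 9 of 24 with saline (log2 fold changes of those fits -1.13 to -0.75 and -1.06 to -0.89). With tRF totals as library sizes neither passed in the saline libraries (log2 fold changes -0.87 and -0.35), and tRF-29-P4R8YP9LONHK did not in the LPS libraries (-0.37, edgeR adjusted p = 0.436). It also lost its call under RLE scaling (edgeR adjusted p = 0.0756 with LPS and 0.0501 with saline) and, with LPS, without the filter (edgeR adjusted p = 0.195). The saline call of tRF-28-P4R8YP9LOND5 was lost without the filter (edgeR adjusted p = 0.109).

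GlyCCC form 1, which shares all but 3 of its first 35 bases with GlyGCC form 1, was tested at lengths of 30 bases and more. Its 31-base tRF-31-PNR8YO9LON4VD had 79.2 to 309 CPM in TG (median 199 CPM) and 165 to 1215 CPM in SCG (median 624 CPM) in the LPS libraries. The log2 fold change was -1.58 ± 0.26 with LPS (edgeR adjusted p = 1.85e-05) and -1.82 ± 0.31 with saline (edgeR adjusted p = 3.1e-05). The 30-base tRF-30-PNR8YO9LON4V passed the filter through SCG alone, with 0 to 10 counts a library in TG and 5 to 163 in SCG in the LPS libraries, and was called lower in TG, with log2 fold changes of -2.75 ± 0.48 with LPS (edgeR adjusted p = 3.69e-05) and -2.13 ± 0.38 with saline (edgeR adjusted p = 4.9e-05). Above 31 bases, the 32-base tRF-32-PNR8YO9LON4V3 was called higher in TG with LPS (0.78 ± 0.29, edgeR adjusted p = 0.0277), where it passed the filter through TG alone and lost its call with miRNA totals as library sizes (0.48, edgeR adjusted p = 0.297), without the filter (edgeR adjusted p = 0.292) and in 7 of 24 fits that left out 1 library, and it had a log2 fold change of -0.39 ± 0.54 with saline, which did not pass. The 35-base tRF-35-PNR8YO9LON4V4R was tested only in the LPS libraries, where it had 0 to 79.6 CPM in TG (median 34.4 CPM) and 0 to 21.95 CPM in SCG (median 5.57 CPM), a log2 fold change of 2.29 ± 0.50 (edgeR adjusted p = 0.000393). This member had 0 to 25 counts a library in TG and 0 to 5 in SCG and passed the filter through TG alone, so the filter favoured its direction.

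GlyCCC form 2 is a separate sequence. The 27-base tRF-27-Q1Q89P9L842, which passed the filter through SCG alone, was called lower in TG, with log2 fold changes of -2.29 ± 0.45 with LPS (edgeR adjusted p = 0.000136) and -0.92 ± 0.27 with saline (edgeR adjusted p = 0.00648). Its saline call was lost with tRF totals as library sizes (-0.23, edgeR adjusted p = 0.583) and without the filter (-0.78, edgeR adjusted p = 0.193). The 32-base tRF-32-Q1Q89P9L8422Q was also lower in TG, with log2 fold changes of -1.09 ± 0.27 with LPS (edgeR adjusted p = 0.00171) and -1.14 ± 0.35 with saline (edgeR adjusted p = 0.00888). With tRF totals as library sizes tRF-32-Q1Q89P9L8422Q passed in neither set (-0.44, edgeR adjusted p = 0.245 with LPS and -0.47, edgeR adjusted p = 0.275 with saline). The 34-base tRF-34-Q1Q89P9L8422KJ, the commonest of this form, had 103 to 573 CPM in TG (median 253 CPM) and 134 to 616 CPM in SCG (median 264 CPM) in the LPS libraries and did not pass in either set (-0.22 ± 0.23 with LPS, -0.10 ± 0.27 with saline). The 35-base tRF-35-Q1Q89P9L8422YR, 1 base longer, had 49.2 to 242 CPM in TG (median 114 CPM) and 6.34 to 83.9 CPM in SCG (median 30.2 CPM) in the LPS libraries. It passed the filter through TG alone and was called higher in TG, with log2 fold changes of 2.05 ± 0.30 with LPS (edgeR adjusted p = 2.8e-06) and 1.63 ± 0.39 with saline (edgeR adjusted p = 0.00117).

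The long fragments of GlyGCC form 2 and GlyTCC showed smaller values. The form 2 fragment tRF-49-PNR8YP9LON4VN1EH6K1K had 354 to 517 CPM in TG (median 479 CPM) and 354 to 992 CPM in SCG (median 579 CPM) in the LPS libraries, a log2 fold change of -0.44 ± 0.17 (edgeR adjusted p = 0.0349). It lost the call in 12 of 24 fits that left out 1 library (edgeR adjusted p = 0.0507 to 0.0989), under RLE scaling (edgeR adjusted p = 0.0747) and without the filter (edgeR adjusted p = 0.498), and with tRF totals as library sizes its direction turned (0.08, edgeR adjusted p = 0.846). It was the only one of 9 form 2 fragments called in the LPS libraries, and none of 8 was called in the saline libraries, where the 49-base fragment had -0.30 ± 0.18. The 48-base tRF-48-PNR8YP9LON4VN1EH6KDJ had 162 to 341 CPM in TG (median 289 CPM) and 253 to 505 CPM in SCG (median 329.7 CPM) in the LPS libraries and did not pass (-0.36 ± 0.17 with LPS, -0.24 ± 0.18 with saline). The GlyTCC fragment tRF-50-QNR8VP94FQFY392J1Y0S, the only GlyTCC member tested, had a log2 fold change of -0.06 ± 0.43 with LPS and 0.30 ± 0.33 with saline and did not pass.

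The number of calls was lower within each time, where 4 TG libraries met 4 SCG libraries. In the LPS libraries the test called 6 of 16 members at 4 h, 5 of 17 at 24 h and 5 of 20 at 7 d, beside 40.1%, 28.9% and 17.9% of all tRFs tested. For the saline libraries the counts were 5 of 18, 3 of 18 and 6 of 17, beside 21.5%, 22.7% and 31.2% of all tRFs. Of the members called over all times, 9, 9 and 11 were tested within these times in the LPS libraries and 8, 10 and 8 in the saline libraries. The commonest, tRF-31-P4R8YP9LON4VD, lost its call at 4 h and 24 h in both sets. Its edgeR adjusted p was then 0.0682 and 0.0564 with LPS and 0.0600 and 0.161 with saline. The saline call of tRF-32-P4R8YP9LON4V3 was lost at 4 h (log2 fold change 0.70, edgeR adjusted p = 0.498).

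Other small RNAs and the RNA itself also differed between the ganglia. The summed level of 3 sensory neuron miRNAs was 66265 to 82636 CPM of miRNA counts in TG and 221 to 3795 CPM in SCG LPS libraries, and 57027 to 88266 CPM in TG and 783 to 21072 CPM in SCG saline libraries, the highest SCG value being replicate 1 after saline at 24 h. The sum of 3 muscle miRNAs was 4125 to 15119 CPM in TG and 199 to 94273 CPM in SCG saline libraries, the highest being replicate 1 at 4 h. In LPS libraries it was 4670 to 13549 CPM in TG and 189 to 35372 CPM in SCG, the highest being replicate 2 at 7 d, which also had the highest sum of 4 leukocyte miRNAs (9668 CPM). For 3 glial miRNAs the sums were 1855 to 3911 CPM in TG and 40.4 to 1009 CPM in SCG libraries, and for 7 epithelial and pituitary miRNAs 4044 to 32913 CPM in TG and 16626 to 46651 CPM in SCG libraries. For 3 neuron miRNAs the median sums were 29182 CPM (LPS) and 29907 CPM (saline) in TG and 10103 and 11605 CPM in SCG. Replicate 2 of SCG after LPS at 7 d had 35879 CPM, above all TG LPS libraries. For the leukocyte miRNAs the medians were 361 and 447 CPM in TG and 491 and 367 CPM in SCG. For 3 erythroid miRNAs they were 1728 and 1977 CPM in TG and 872 and 773 CPM in SCG. For 1 liver miRNA they were 43.6 and 37.8 CPM in TG and 19.1 and 23.9 CPM in SCG. No listed miRNA was at 0 in every library. The labels give a mean RNA yield of 193 ng/µL for TG and 64 ng/µL for SCG. Their part in the ganglion difference was not tested. Without the 3 SCG saline libraries high in muscle, epithelial or sensory neuron miRNAs 11 of 27 members were called in the saline libraries. Without replicate 2 of SCG after LPS at 7 d 13 of 29 were called in the LPS libraries. The share of all tRFs called in these fits was not counted. In bulk tissue, fewer cells of a type and less RNA per cell cannot be told apart.

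**Figure D3:**
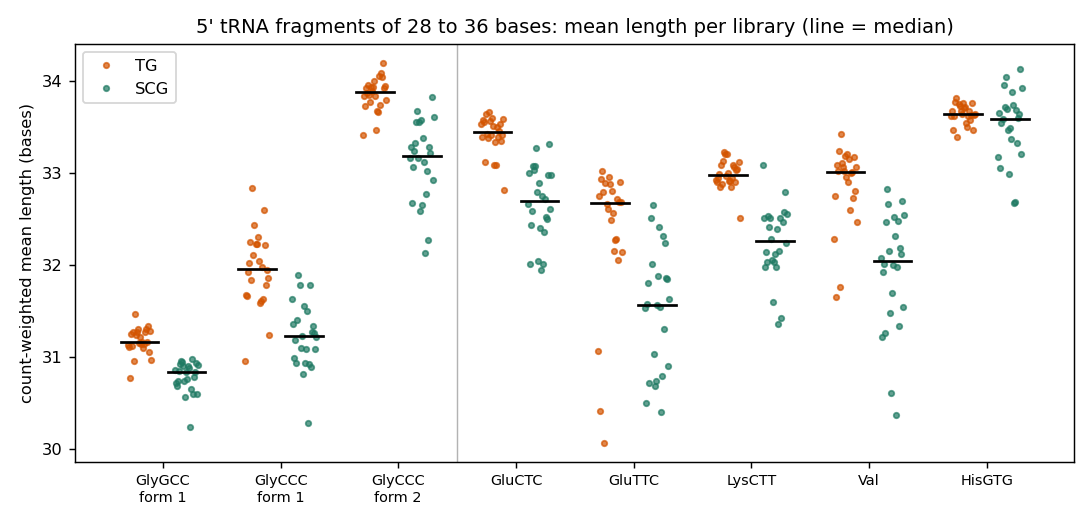
Count-weighted mean length in bases (y axis) of the 5' fragments of 28 to 36 bases in each library, TG beside SCG (24 libraries each, line at the median), for 3 glycine forms left of the grey line and 5 other tRNA families right of it. The medians were higher in TG for the glycine forms and for GluCTC, GluTTC, LysCTT and Val, and close together for HisGTG.

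A greater mean length in TG was not particular to glycine. Over fragments of 28 to 36 bases the median of the count-weighted mean length was 31.2 bases in TG and 30.8 bases in SCG libraries for GlyGCC form 1. It was 31.96 bases in TG and 31.2 bases in SCG for GlyCCC form 1, and 33.9 bases in TG and 33.2 bases in SCG for GlyCCC form 2. It was 33.4 bases in TG and 32.7 bases in SCG for GluCTC, and 32.7 bases in TG and 31.6 bases in SCG for GluTTC. For LysCTT it was 32.98 bases in TG and 32.3 bases in SCG, and for valine 5' fragments 33.01 bases in TG and 32.04 bases in SCG. For HisGTG it was 33.6 bases in both. Of the 24 TG libraries, 21 lay above the highest SCG library for GlyGCC form 1, 14 for GlyCCC form 1 and 16 for GlyCCC form 2, beside 20 for GluCTC, 16 for valine, 13 for GluTTC, 7 for LysCTT and 0 for HisGTG.

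The 5' fragments of these other families were called in numbers of both signs. In the LPS libraries 8 glutamate 5' fragments were higher and 20 lower in TG of 47 tested, 9 lysine ones were higher and 9 lower of 35, 8 histidine ones were higher and 19 lower of 34, and 4 valine ones were higher and 3 lower of 14. In the saline libraries 5 glutamate 5' fragments were higher and 22 lower of 44, 1 lysine one was higher and 6 lower of 27, 8 histidine ones were higher and 16 lower of 34, and 1 valine one was higher and 2 lower of 12. Among all tRFs tested 26.7% were higher and 23.5% lower with LPS, and 20.8% higher and 21.9% lower with saline.

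The 3' side of the glycine tRNAs was measured in the same libraries. Glycine 3'-half fragments were rare, with 148 counts for GlyGCC and 3080 counts for GlyCCC over all libraries, against 414755 counts in all GlyGCC 5'-half fragments and 10733 in all GlyCCC 5'-half fragments. Of the 3'-half fragments, 3 of 3 tested in the LPS libraries and 3 of 4 in the saline libraries were higher in TG. Of all tRFs tested, 26.7% and 20.8% were. Which ganglion brought the 3' and internal fragments through the filter on low counts was not looked at. The filter may have favoured the direction of their calls. The summed GlyCCC 3'-half level was 296 to 735 CPM in TG libraries (median 406 CPM) and 70.0 to 231 CPM in SCG libraries (median 145 CPM), with no overlap. The commonest, tRF-40-J9ZH0SR9593KMH26, had a log2 fold change of 2.29 ± 0.25 with LPS and 2.35 ± 0.29 with saline. Shorter 3' fragments (3'-tRFs) seldom passed, with 0 higher and 2 lower of 14 in the LPS libraries and 0 higher and 1 lower of 14 in the saline libraries. Internal glycine fragments were mostly higher where called, with 8 higher and 1 lower of 23 in the LPS libraries and 8 higher and 0 lower of 20 in the saline libraries. Most of those called higher were GlyCCC fragments. Several, such as tRF-20-J9ZH0SR9, share the start of their name with the 3'-half tRF-40-J9ZH0SR9593KMH26. Summed GlyCCC internal fragments were higher in all 24 TG libraries than in any SCG library (ratio of medians 2.96). For GlyGCC the ratio was 1.08 and for GlyTCC 0.882, and the ganglia overlapped.

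The effect of LPS was compared within each ganglion and time, 4 LPS against 4 saline libraries, with a term for sex. No glycine 5' fragment passed an adjusted p of 0.05 by edgeR's quasi-likelihood test in any of the 6 comparisons, and no other tRF did (0% of 559 tRFs tested in TG and 0% of 544 in SCG). At an unadjusted p of 0.05, 1, 1 and 0 of 22 tested members passed in TG at 4 h, 24 h and 7 d, beside 3.76%, 8.05% and 6.8% of all tRFs tested. In SCG 2, 3 and 2 of 27 did, beside 7.17%, 4.78% and 4.96% of all tRFs. DESeq2 called no member and no tRF, except 3 tRFs in TG at 7 d that were not members. The smallest adjusted p of a member was 0.578, in SCG at 4 h.

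**Figure D4:**
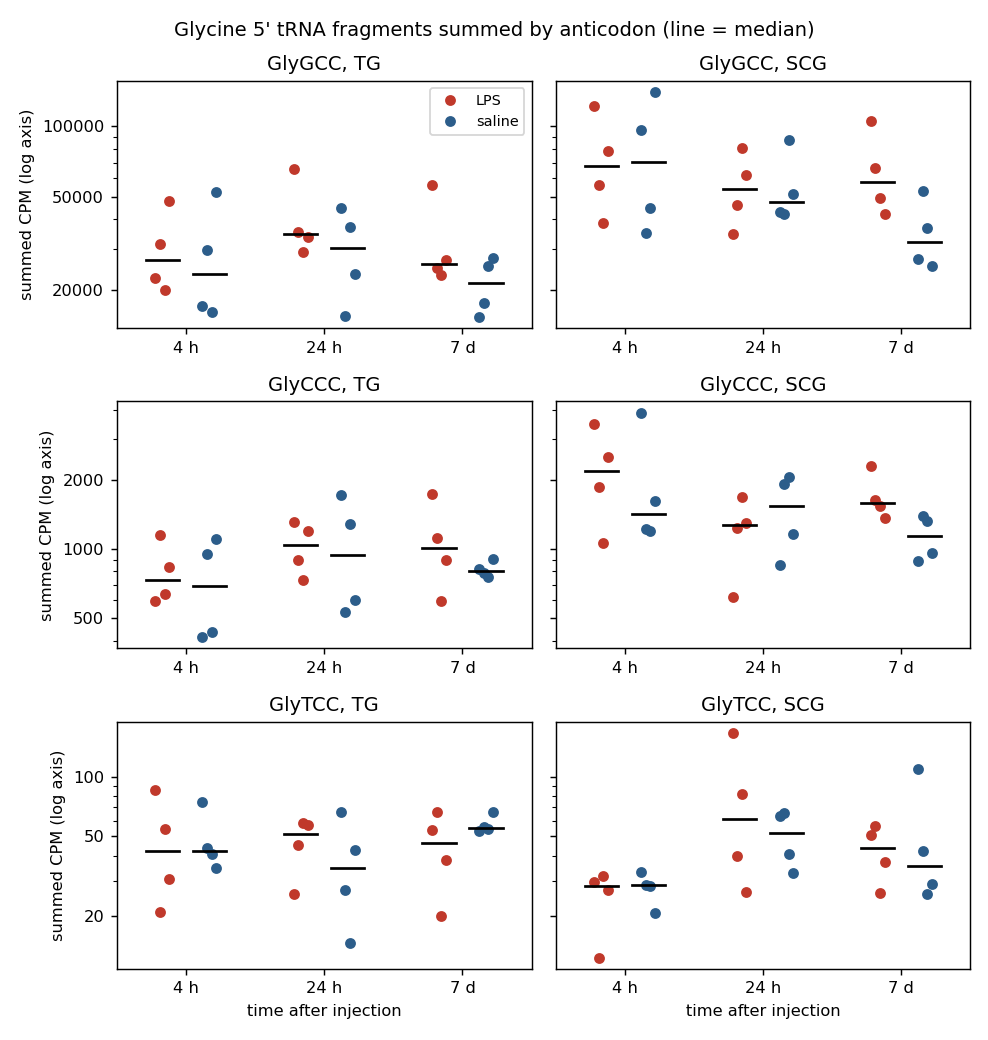
Summed level of the members of each anticodon (y axis, CPM, log axis) in every library by time after injection (x axis), with LPS beside saline in TG (left column) and SCG (right column), 4 libraries a group and the median as a line. The LPS and saline libraries overlap at every time in every panel, for example 34673 to 80831 CPM with LPS and 42116 to 87351 CPM with saline for GlyGCC in SCG at 24 h.

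The summed GlyGCC level in TG at 4 h was 22448, 31361, 19936 and 47890.1 CPM in LPS libraries and 17063, 29597, 16049.7 and 52555 CPM in saline libraries. At 24 h it was 65631, 35279.5, 28973 and 33699.6 CPM with LPS and 44665, 15530.5, 37186 and 23447 CPM with saline. At 7 d it was 56336, 24855, 23126 and 26826 CPM with LPS and 15363, 17496, 25421 and 27370.2 CPM with saline. The groups overlapped at each time, and single libraries stood high after LPS at 24 h and 7 d. CPM values depend on the TMM scaling factor, which was 0.271 to 1.97 over the libraries. In the high 7 d library, replicate 1, it was 0.577, and the members made up 3.36% of tRF counts. In replicates 2, 3 and 4 the factors were 1.03, 1.63 and 1.24 and the shares 2.67, 3.87 and 3.43%. In the high 24 h library, replicate 1, the factor was 0.788 and the share 5.28%, against shares of 4.21, 3.92 and 3.45%.

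In SCG the GlyGCC sum at 4 h was 122445, 56069, 38529 and 78715 CPM in LPS libraries and 96198, 34840.2, 44660.5 and 139700.0 CPM in saline libraries. At 24 h it was 34673, 46063, 80831 and 62168 CPM with LPS and 43115, 42116, 87351 and 51537 CPM with saline. At 7 d it was 105405, 66483, 49300.4 and 42255 CPM with LPS and 27168, 53069, 36899 and 25226 CPM with saline. The spread within a group reached several-fold, and at 7 d 1 saline library lay inside the LPS range. This spread includes that of the TMM scaling factors, which were 0.271, 0.538, 0.909 and 0.584 in the LPS libraries at 4 h. The members made up 3.41, 3.12, 3.61 and 4.75% of tRF counts in these libraries. In the saline libraries at 4 h they made up 7.62, 3.54, 4.06 and 12.7%.

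The GlyCCC sum in TG was 593, 1153, 635 and 834 CPM with LPS and 415, 950.5, 438 and 1108 CPM with saline at 4 h. It was 1311, 896, 736 and 1195 CPM with LPS and 1713, 532, 1280.1 and 601 CPM with saline at 24 h, and 1741, 1116, 594 and 900.4 CPM with LPS and 819, 788, 760.4 and 905 CPM with saline at 7 d. All 3 times overlapped. In SCG it was 3491, 1858, 1065 and 2503 CPM with LPS and 3906, 1227, 1193 and 1615 CPM with saline at 4 h. It was 622, 1229, 1678 and 1304 CPM with LPS and 855, 1920.4, 2052 and 1160.3 CPM with saline at 24 h, and 2282, 1641, 1538 and 1371 CPM with LPS and 888, 1393, 1323 and 962 CPM with saline at 7 d. At 7 d the groups met only where the highest saline library passed the lowest LPS library.

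GlyTCC, at 12.3 to 165 CPM in any library, overlapped between LPS and saline in all 6 comparisons too. Its widest spread was in SCG at 24 h, with 165, 40.0, 81.7 and 26.3 CPM in LPS libraries and 63.7, 65.7, 40.9 and 32.9 CPM in saline libraries.

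The 32-base share of GlyGCC form 1, which set the ganglia apart, also overlapped between LPS and saline. In TG it was 35.2, 37.4, 34.3 and 21.8% with LPS and 41.5, 29.2, 30.4 and 15.1% with saline at 4 h. It was 43.0, 46.7, 42.1 and 35.6% with LPS and 16.7, 34.4, 34.4 and 40.5% with saline at 24 h, and 41.9, 29.3, 42.1 and 13.1% with LPS and 35.1, 42.4, 38.0 and 25.6% with saline at 7 d. At 24 h 3 of 4 LPS libraries lay above all saline libraries. In SCG every library of either treatment had 2.13 to 13.6%.

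**Figure D5:**
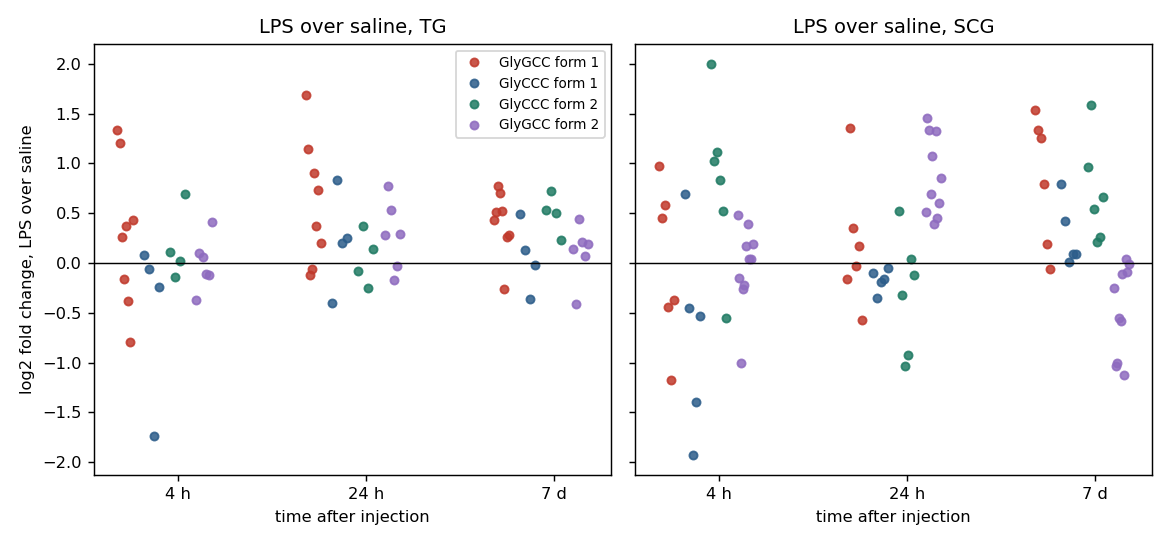
Log2 fold change of LPS over saline (y axis) for each tested member of 4 forms by time after injection (x axis), in TG (left) and SCG (right), 4 LPS against 4 saline libraries each; each point is 1 member and GlyTCC is not drawn. The points lie on both sides of 0 at most times, and none passed an adjusted p of 0.05.

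Over the tested members the median log2 fold change of LPS over saline was 0.04, 0.26 and 0.27 in TG at 4 h, 24 h and 7 d, beside -0.03, -0.02 and 0.02 over all tested tRFs. In SCG it was 0.04, 0.17 and 0.09, beside -0.05, 0.08 and 0.10 over all tested tRFs. For the commonest fragment, tRF-31-P4R8YP9LON4VD, the values were -0.16 ± 0.52, -0.06 ± 0.52 and 0.70 ± 0.53 in TG and -0.44 ± 0.45, -0.03 ± 0.44 and 0.79 ± 0.44 in SCG. For the 32-base tRF-32-P4R8YP9LON4V3 they were 0.37 ± 0.43, 0.91 ± 0.44 and 0.52 ± 0.44 in TG, and -1.17 ± 0.57, 0.17 ± 0.56 and 0.19 ± 0.56 in SCG.

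Few members separated the treatments. In TG at 4 h tRF-29-P4R8YP9LONHK had 459, 293, 266 and 342 CPM in LPS libraries and 49.8, 253, 132 and 143 CPM in saline libraries, with no overlap (1.21 ± 0.58 on the log2 scale, edgeR adjusted p = 0.934). It was 1 of 22 tested members, beside 1.97% of all tRFs tested. In SCG at 24 h 2 of 27 members did not overlap, beside 3.31% of all tRFs. Of these, the form 2 fragment tRF-47-PNR8YP9LON4VN1EH6KJ had 62.96, 84.95, 52.9 and 79.0 CPM with LPS and 27.3, 43.8, 15.3 and 32.9 CPM with saline, and the GlyCCC fragment tRF-32-Q1Q89P9L8422Q had 55.1, 70.0, 57.7 and 70.2 CPM with LPS and 77.3, 197, 159 and 123 CPM with saline. Both had few counts. For tRF-47-PNR8YP9LON4VN1EH6KJ these were 8, 17, 11 and 18 with LPS and 6, 8, 3 and 4 with saline. For tRF-32-Q1Q89P9L8422Q they were 7, 14, 12 and 16 with LPS and 17, 36, 31 and 15 with saline. Before scaling, the counts of the former met and those of the latter overlapped. In the other 4 comparisons no member was without overlap, beside 2.02% (SCG at 4 h), 1.1% (SCG at 7 d), 1.79% (TG at 24 h) and 3.04% (TG at 7 d) of all tRFs.

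Some members passed an unadjusted p of 0.05 only. In SCG at 4 h the 27-base GlyCCC fragment tRF-27-Q1Q89P9L842 had 257, 90.3, 88.8 and 581 CPM with LPS and 72.6, 95.1, 47.2 and 15.5 CPM with saline, a log2 fold change of 2.00 ± 0.74 (edgeR adjusted p = 0.578). In the same comparison tRF-32-PNR8YO9LON4V3 had 70.9, 61.5, 31.7 and 27.02 CPM with LPS and 581, 38.0, 33.01 and 67.3 CPM with saline, with a log2 fold change of -1.93 ± 0.80; 1 saline library stood far above the others. In TG at 24 h tRF-32-P4R8YP9LON4V3 was the member concerned (edgeR adjusted p = 0.603), and at 4 h it was tRF-29-P4R8YP9LONHK. The GlyGCC form 2 fragments of 40, 42 and 47 bases had log2 fold changes of 1.46, 1.34 and 1.33 in SCG at 24 h, and those of 42 and 47 bases had -1.01 and -1.13 in SCG at 7 d.

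The difference of the LPS effect between TG and SCG was tested at each time over all 48 libraries with an interaction term. edgeR called no member and no tRF of 729 tested (0%) at any time. At an unadjusted p of 0.05 the counts were 2, 0 and 1 of 29 tested members at 4 h, 24 h and 7 d, beside 3.98%, 4.8% and 3.98% of all tRFs, and DESeq2 called none. At 4 h they were tRF-27-Q1Q89P9L842 (-2.17 ± 0.96, TG minus SCG on the log2 scale) and tRF-32-P4R8YP9LON4V3 (1.5 ± 0.74), each with an edgeR adjusted p of 0.981, and at 7 d it was tRF-47-PNR8YP9LON4VN1EH6KJ (1.54 ± 0.74, edgeR adjusted p = 0.980).

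Male and female libraries were compared within each ganglion, 12 against 12, with a term for the group. edgeR called no member and no other tRF (0% of 559 in TG and 0% of 544 in SCG), DESeq2 called 2 tRFs in TG and 5 in SCG that were not members, and 2 members passed an unadjusted p of 0.05 in each ganglion, beside 9.48% of all tRFs in TG and 9.19% in SCG. The fragment tRF-34-Q1Q89P9L8422KJ, the commonest of GlyCCC form 2, was among them in both ganglia. It had 103 to 331 CPM in male (median 154 CPM) and 74.7 to 573 CPM in female TG libraries (median 280.3 CPM), a log2 fold change of male over female of -0.66 ± 0.25 (edgeR adjusted p = 0.360). In SCG it had 114 to 311 CPM in male (median 186 CPM) and 105 to 616 CPM in female libraries (median 312 CPM), a log2 fold change of -0.80 ± 0.27 (edgeR adjusted p = 0.261). The ranges overlapped in both ganglia. The other 2 were GlyGCC form 2 fragments, tRF-40-PNR8YP9LON4VN1EH in TG (-0.86, edgeR adjusted p = 0.329) and tRF-45-PNR8YP9LON4VN1EH6K in SCG (-0.89, edgeR adjusted p = 0.272).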

How the data were processed

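Small RNA libraries (NEBNext kit, NextSeq 500, per the labels' protocols) were processed with tools and a build that include FastQC 0.11.9 and GRCm39, per the submitters' processing notes. The authors deposited raw counts of tRFs, named by MINTbase identifiers, and of miRNAs per library; the tRF caller is not given in the sources used here. The mean RNA integrity number was 8.3 (6.4 to 9.3), per the labels. Groups came from the labels and all 48 count columns were used. Counts were fitted over the whole tRF table with edgeR 4.0.16 in R 4.3.3 (TMM, filterByExpr with minimum count 10, robust quasi-likelihood test, Benjamini-Hochberg threshold 0.05), in 13 comparisons. The fits were tested on simulated data. A standard error is the log2 fold change over the square root of F. CPM values use TMM sizes over 48 libraries from 729 tRFs. Alternatives were DESeq2 1.42.0, RLE scaling, miRNA or tRF totals, no filter, no sex term and libraries left out. Named members are the 10 with the most counts, the commonest of each anticodon and type, the 3 with the smallest p per direction among those called in a comparison, and those beside the minimum; other members named were chosen after their values were seen. The members and lists were chosen with earlier results of these data known. RefSeq's GRCm38.p6 annotation served only to count tRNA genes. Reads without molecular identifiers are not independent molecules.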

Additional observations from a re-analysis of the deposited data

Results flagged for a closer look

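Sums and shares were looked at in 60 sets of 4 libraries for a library whose gap to its nearest neighbour, as a part of the whole range, exceeded Dixon's critical value for 4 samples. Chance flags about 1 in 20 such sets, and 5 values, in 4 libraries, stood out. Members made up 7.98% of tRF counts in replicate 4 of TG after LPS at 4 h, against 2.79 to 3.44% in the other 3. The GlyGCC sum was 56336 CPM in replicate 1 of TG after LPS at 7 d, against 23126 to 26826 CPM. Before TMM scaling, the members made up 3.36% of tRF counts in this library, against 2.67 to 3.87% in the other replicates. The GlyCCC sum was 3906 CPM in replicate 1 of SCG after saline at 4 h, against 1193 to 1615 CPM. The same library had a 32-base share of GlyGCC form 1 of 13.6%, against 2.41 to 3.54%, and the highest sum of muscle miRNAs of the SCG libraries (94273 CPM). The GlyTCC sum was 66.3 CPM in replicate 4 of TG after saline at 7 d, against 53.3 to 55.5 CPM.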

How the results depend on the processing

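Comparing TG with SCG within 4 h, 24 h or 7 d alone called 5, 3 and 6 members in the saline libraries instead of 12, and 6, 5 and 5 in the LPS libraries instead of 14; fewer libraries enter these fits. The alternatives within a time, the tRF totals and the removal of 3 SCG saline libraries were chosen after seeing the data. Leaving out each library in turn gave 11 to 15 called members in the LPS libraries and 11 to 13 in the saline libraries, and 0 in each of the 11 other comparisons. How many of all tRFs these fits called was not counted. RLE scaling called 12 of 28 members in LPS and 11 of 27 in saline libraries, beside 290 of 599 and 247 of 571 tRFs. Calls with miRNA totals were 15 in LPS and 13 in saline, and with tRF totals 11 in LPS and 8 in saline. Without the filter 16 of 73 members were called in LPS and 13 of 73 in saline libraries. Of all tRFs, 476 of 9955 and 369 of 9502 were then called. Members were selected on a minimum summed count and the other tRFs were not, so these shares are not on a like base. All 12 saline calls kept their sign under RLE scaling, miRNA totals, tRF totals and DESeq2, as did 14 LPS calls except under tRF totals, where tRF-49-PNR8YP9LON4VN1EH6K1K reversed to 0.0819 (edgeR adjusted p = 0.846); the cause was not tested. In the saline libraries tRF-29-P4R8YP9LONHK lost its call without the 3 SCG libraries (-0.65, edgeR adjusted p = 0.150). With miRNA totals the median of all tRFs moved to 0.30 (4 h) and 0.71 (7 d) in SCG and to 0.18 (4 h) and 0.24 (24 h) in TG for LPS over saline, with no member called. No paired analysis was possible because the labels give no replicate numbers that tie libraries of different groups to one mouse. The 42 members too rare to test held at most 240 counts each.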
